A study of Mus musculus with 4 samples.

Results

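Early cartilage cells rich in Spp1, the gene for the secreted phosphoprotein osteopontin, numbered 156 among the 22773 cells kept on postnatal days 7 and 8, and the whole series held 49055 kept cells. On day 7 they were 94 of 9417 cartilage cells, or 0.998% with a 95% interval of 0.807 to 1.22. The day-8 library held 62 among 6241, or 0.993% (0.762 to 1.27). A cell counted as a cartilage cell when Col2a1, Col9a1, Col9a2, Col9a3 and Acan, the genes of the cartilage collagens and of aggrecan, together gave at least 3% of its unique molecular identifiers (UMIs, one per captured transcript), Col10a1 gave less than 0.5%, and no UMI of the blood-cell gene Ptprc was present. A cartilage cell was called Spp1-high when Spp1 gave at least 0.5% of its UMIs. Cells with fewer than 500 genes or 1000 UMIs, or with over 15% of UMIs from mitochondrial genes, were left out. The rule used Spp1, the cartilage genes, Col10a1 and Ptprc, so their levels below are descriptions of how the cells were chosen.

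The cells came from wild-type (WT) mice, from the cartilaginous end of the femur called the epiphysis, at 7, 8, 10 and 12 days after birth. Each day was profiled as 1 droplet library that reads the 3' ends of transcripts. The sources used here give neither strain, sex nor the number of animals per library. The series title concerns whether cartilage cells give rise to blood stem cells by way of endothelial cells.

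Osteopontin is an acidic glycoprotein of mineralized matrix that binds calcium and hydroxyapatite and is recognized by integrins and CD44. In bone it is made by osteoblasts, osteocytes and osteoclasts, and in cartilage it is known from maturing hypertrophic chondrocytes and from injured or osteoarthritic cartilage. It is also a widespread macrophage product. Matrix Gla protein (Mgp) and the pyrophosphate pathway (Enpp1, Ank) are known to restrain mineral deposition in cartilage.

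The libraries held 44218720 UMIs on day 7 and 46534365 on day 8. Spp1-high cells had medians of 4409.5 and 3613 UMIs per cell on days 7 and 8, against 3138 and 3370 in the other cartilage cells, so on day 7 they were the deeper group. Of the 156 barcodes, 1 also occurred in another library, and the day-7 and day-8 libraries shared 84 barcodes in all. At least 1 UMI of an endothelial, osteoclast, macrophage or osteoblast marker was present in 39.4% and 50.0% of Spp1-high cells and in 33.7% and 53.1% of other cartilage cells on days 7 and 8. Summed over 10 macrophage markers, Spp1-high and other cartilage cells stood at 46.4 and 45.3 CPM on day 7 and at 127 and 130 CPM on day 8, where CPM is a gene's count in the usual scaling to the group's total. Osteoclast markers summed to 376 against 89.5 CPM on day 7, most of it Mmp9 in a single cell, and to 139 against 130 CPM on day 8, with Oscar, Dcstamp and Calcr at 0. Endothelial markers summed to 39.8 against 19.9 CPM and to 50.2 against 38.9 CPM, with Kdr, Tie1 and Egfl7 at 0. Osteoblast markers summed to 2839 against 3873 CPM and to 3993 against 5515 CPM, and red cell markers to 287 against 578 CPM and 922 against 2019 CPM. Within the osteoblast list Ibsp went the other way, at 241 against 16.4 CPM on day 7 and 61.7 against 30.6 CPM on day 8. The day-7 level of Ibsp was 15.3 CPM without 7 cells rich in Mmp13, Ibsp and Mmp9. Those cells were chosen for these same genes, so a lower level without them follows from the choice. The part of these RNAs in the results was not tested. All 10 chondrocyte markers outside the rule were detected in the Spp1-high cells, and Sox9, the transcription factor that sets chondrocyte identity, stood at 827 CPM on day 7 and at 914 CPM on day 8 against 1040 and 1088 CPM in the other cartilage cells.

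Each day is 1 library, so differences between days were not tested. Spp1-high and other cartilage cells were set side by side within each library, and no p-values are given because these groups were split by their own counts. A level is the sum of a gene's UMIs over a group of cells in 1 library, given in CPM with its exact 95% Poisson interval. Shares of cells carry exact 95% Clopper-Pearson intervals. All intervals cover counting error only.

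Spp1 formed a continuous tail in cartilage cells. It was not detected in 6973 cells on day 7 and 4319 on day 8. The Spp1-high cells had a median Spp1 share of 0.955% of UMIs and a maximum of 6.07% on day 7, and 0.907% and 6.18% on day 8. No gap separated the cells at the threshold. Between 0.4% and 0.5% of UMIs lay 19 cells on day 7 and 11 on day 8, and between 0.5% and 0.6% lay 13 and 12 cells. Spp1-high is a range of a measured share. Timp1 stood at 654 CPM in the cells just below the threshold and 3955 CPM in those just above it on day 7, and at 397 and 1177 CPM on day 8. Mgp went in opposite directions there, at 16547 and 7019 CPM on day 7 and 11812 and 36372 CPM on day 8. Summed per group, Spp1 (ENSMUSG00000029304.15) stood at 14247 CPM in Spp1-high cells and 146 CPM in other cartilage cells on day 7, and at 16277 and 151 CPM on day 8.

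**Figure D1:**
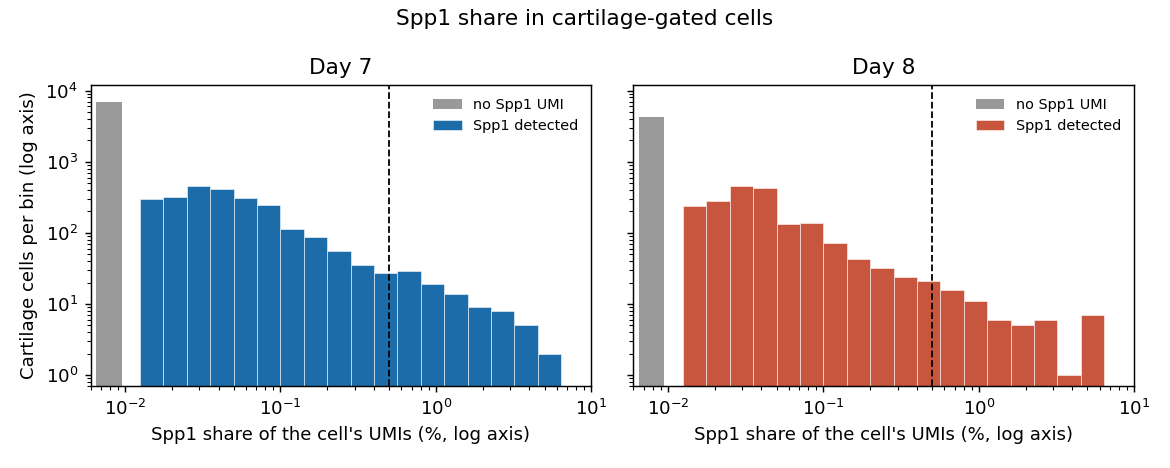
Number of cartilage cells (vertical log axis) by the share of each cell's UMIs that came from Spp1 (horizontal log axis, percent) on days 7 and 8, with cells lacking an Spp1 UMI as the grey bar, all lower shares in the leftmost coloured bar and the 0.5% threshold dashed. The bars continue without a gap across the threshold, to maxima of 6.07% and 6.18%.

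Spp1 UMIs were also found in cells of other lineages. Endothelial cells were taken as cells with at least 2 UMIs of Cdh5, Pecam1, Kdr and Emcn and under 1% of UMIs from the cartilage genes, macrophage-lineage cells as those with both Ptprc and Csf1r, and osteoblast-lineage cells as those with at least 2% of UMIs from Col1a1 and Col1a2, under 3% from the cartilage genes and a UMI of Ibsp or Bglap. After each cell was thinned to 1000 UMIs, at least 1 Spp1 UMI was found in 8.16% of 49 endothelial cells on day 7 (2.27 to 19.6) and in 9.43% of 297 such cells on day 8 (6.36 to 13.3). The share was 11.3% and 11.9% in the other cartilage cells, close to the endothelial shares. Endothelial cells were not free of Spp1, since 1 of them on day 7 had 3.09% of its UMIs from it and their summed level was 2210 CPM on day 7 and 204 CPM on day 8. Macrophage-lineage cells reached 25.2% and 23.6%, osteoblast-lineage cells 39.2% and 46.5%, and Col10a1-high cartilage cells 45.2% and 33.9%. All Spp1-high cells kept an Spp1 UMI. Before thinning, the endothelial shares were 18.4% and 23.9% at median depths of 6141 and 4003 UMIs, and those of other cartilage cells 25.2% and 30.1% at 3138 and 3370 UMIs.

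The label under which these cells were proposed rests on Spp1, Timp1, Cytl1, Mmp3 and Igfbp5. Timp1 and Cytl1 were higher in the group in both libraries. Igfbp5 also had a higher level in both but lay under the count minimum with 39 and 30 UMIs. On day 7 it was detected in only 10 of 94 Spp1-high cells. Mmp3 came from a handful of cells.

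Timp1 (ENSMUSG00000001131.12), a secreted inhibitor of matrix metalloproteinases, stood at 2216 CPM (2081 to 2357) in Spp1-high cells and 338 CPM in other cartilage cells on day 7. For day 8 the values were 2045 CPM (1874 to 2226) and 266 CPM. The ratios were 6.57-fold (6.15 to 7.00) and 7.71-fold (7.04 to 8.41). It was detected in 70 of 94 and 44 of 62 Spp1-high cells, with at most 18.5% of its UMIs from 1 cell.

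Cytl1 (ENSMUSG00000062329.5), a small secreted protein known from cartilage, stood at 1614 CPM (1499 to 1736) against 248 CPM on day 7 and at 1833 CPM (1671 to 2005) against 185 CPM on day 8. This was 6.53-fold and 9.95-fold. A single cell held 22.9% of its UMIs on day 7 and another 27.4% on day 8, and it was detected in 51 and 39 Spp1-high cells.

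Igfbp5 (ENSMUSG00000026185.9), a binding protein of insulin-like growth factors, stood at 86.2 CPM (61.3 to 118) against 29.7 CPM on day 7 and at 116 CPM (78.1 to 165) against 44.7 CPM on day 8, with 38.5% of its day-7 UMIs in 1 cell. Mmp3 (ENSMUSG00000043613.9), the protease stromelysin-1, stood at 99.5 CPM against 12.2 CPM on day 7 and at 50.2 against 5.36 CPM on day 8. Its 45 UMIs on day 7 came from 6 of 94 cells, with 42.2% in 1 cell, and its 13 UMIs on day 8 from 3 of 62 cells. Mmp3 therefore does not describe the group as a whole. Igfbp5 was detected in 10.6% of Spp1-high and 7.17% of other cartilage cells on day 7, so it too was absent from most of the group there.

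The upstream sequence of the genes that carry the pattern is shown to see whether they share a letter pattern. The 250 bases before the start of Spp1, Timp1, Cytl1 and S100a6 are given 5′ to 3′ from RefSeq's promoter table (build GRCm38.p6, matched by symbol, first entry per gene). Capitals mark the RUNX pattern ACCACA or its reverse complement TGTGGT. The regions are chr5:104434861-104435110 on the plus strand for Spp1, chrX:20869916-20870165 on the plus strand for Timp1, chr5:37735269-37735518 on the plus strand for Cytl1 and chr3:90612644-90612893 on the plus strand for S100a6.
Spp1: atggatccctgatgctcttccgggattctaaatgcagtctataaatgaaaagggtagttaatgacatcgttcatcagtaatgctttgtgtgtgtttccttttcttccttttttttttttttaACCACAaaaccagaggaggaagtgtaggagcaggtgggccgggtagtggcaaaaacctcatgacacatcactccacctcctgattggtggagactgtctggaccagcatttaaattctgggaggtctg
Timp1: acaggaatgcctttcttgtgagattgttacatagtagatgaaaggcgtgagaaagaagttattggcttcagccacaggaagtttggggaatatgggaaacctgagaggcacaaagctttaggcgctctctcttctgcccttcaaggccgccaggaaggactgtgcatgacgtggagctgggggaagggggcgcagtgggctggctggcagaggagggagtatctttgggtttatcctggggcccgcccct
Cytl1: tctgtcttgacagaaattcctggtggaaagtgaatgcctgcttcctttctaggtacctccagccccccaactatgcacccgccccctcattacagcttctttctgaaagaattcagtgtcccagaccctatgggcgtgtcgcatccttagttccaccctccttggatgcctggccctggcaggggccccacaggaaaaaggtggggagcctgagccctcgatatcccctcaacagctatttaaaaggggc
S100a6: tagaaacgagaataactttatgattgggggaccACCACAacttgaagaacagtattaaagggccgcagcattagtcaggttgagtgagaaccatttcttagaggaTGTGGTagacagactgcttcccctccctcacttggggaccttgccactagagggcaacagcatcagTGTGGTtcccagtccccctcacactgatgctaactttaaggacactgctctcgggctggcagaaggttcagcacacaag

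Spp1 held 1 RUNX pattern and S100a6 held 3, whereas the windows of Timp1 and Cytl1 held none. The windows of Mmp3, Igfbp5, Emb and Serpine2 were searched as well and held no RUNX pattern. The AP-1 pattern TGANTCA was in 1 of the 8 windows, that of Mmp3. Neither pattern contains the other. Among genes 1.5-fold higher in Spp1-high cells in both libraries, 49 of 71 had a promoter entry and 8.16% of these held the RUNX pattern, against 9.60% of 1448 measured genes with an entry and 14.2% of all 27025 genes in the table. For the AP-1 pattern the shares were 4.08%, 4.21% and 6.87%. These are 4 and 2 genes of the 49, shares close to those of the measured genes. A match in these windows is a description of letters and not a binding site.

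Across all measured genes, the Spp1-high cells differed from other cartilage cells by a limited set of genes. Of 1825 genes with at least 20 UMIs expected in each group of both libraries, 73 (4.00%) were at least 1.5-fold higher in Spp1-high cells in both libraries and 80 (4.38%) at least 1.5-fold lower. Together these were 153 genes (8.38%). On day 7 alone 125 (6.85%) were higher and 168 (9.21%) lower, and on day 8 alone 143 (7.84%) and 213 (11.7%). Among the 73 were the rule genes Spp1 and Col10a1, which left 71. The median log2 ratio over all 1825 genes was -0.02 on day 7 and -0.05 on day 8. A gene with a low level in other cartilage cells could miss the count minimum, and 6 of the 15 genes with the largest ratios did.

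**Figure D2:**
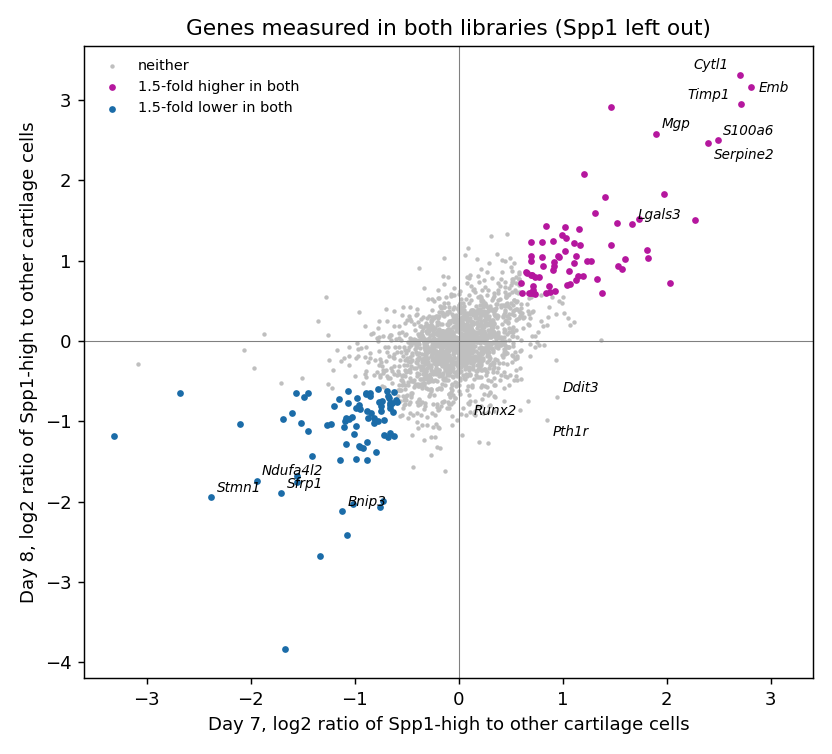
Log2 ratio of Spp1-high to other cartilage cells on day 7 (horizontal) and day 8 (vertical) for the genes with enough UMIs in both libraries, 1 point per gene, with Spp1 itself left out. The 80 genes lower in both libraries are blue and the higher genes purple, with Emb, Cytl1 and Timp1 at the far upper right and Ddit3, Pth1r and Runx2 higher on day 7 only and lower on day 8.

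The rule that ranks genes by the smaller of their 2 ratios gave Anxa3, Cytl1, Timp1, Emb, Chil1, S100a6, Serpine2, Rgs2, Hmga2, Mgp, Cavin3, Cxcl1, Htra1, Fn1 and Anxa1. Of these, Anxa3, Chil1, Rgs2, Hmga2, Cxcl1 and Htra1 lay under the count minimum and were not called. Emb, embigin, a membrane glycoprotein that accompanies lactate transporters, stood at 681 CPM (607 to 762) against 97.2 CPM on day 7 and at 648 CPM (554 to 754) against 72.8 CPM on day 8. It was 7.03-fold and 8.96-fold higher and was spread over 63 and 37 cells. S100a6, a calcium-binding protein, stood at 1090 against 195 CPM and at 1717 against 305 CPM. Anxa3, an annexin that binds membrane phospholipids, stood first in this order at 12.7-fold and 18.3-fold, from 55 and 63 UMIs. Endothelial cells had more Anxa3 than Spp1-high cells, at 295 and 344 CPM, and more Anxa1, at 449 and 537 CPM. Chil1, a secreted chitinase-like protein made by stressed and arthritic chondrocytes, stood at 562 against 93.3 CPM on day 7 and 471 against 66.5 CPM on day 8. For Rgs2, a regulator of G-protein signalling, 58.2% of the day-7 UMIs came from 1 cell.

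Protease inhibitors were among the higher genes. Of 12 listed inhibitors 7 had enough UMIs, and Timp1, Timp3 and Serpine2 were higher in both libraries while none was lower. Timp1 is one of the markers under which the cells were proposed, so its call adds no support of its own. Over all 1825 measured genes 4.00% were higher and 4.38% lower in both libraries, the shares to set beside this and later lists. Timp3, an inhibitor bound to the matrix, stood at 842 against 391 CPM on day 7 and 737 against 318 CPM on day 8. Serpine2, protease nexin-1, which inhibits thrombin and plasminogen activators, stood at 442 against 84.3 CPM and at 459 against 83.7 CPM. Without 7 day-7 cells rich in Mmp13, Ibsp and Mmp9, Serpine2 stood at 258 CPM on day 7. The median log2 ratio over the 7 inhibitors was 0.20 and 0.04. Of 25 listed matrix proteases 4 had enough UMIs and none was called in both libraries. The median log2 ratio over these 4 was 0.50 on day 7 and 0.13 on day 8. All 25 together stood at 3124 against 990 CPM on day 7 and at 1273 against 980 CPM on day 8. Mmp13 stood at 1112 against 64.2 CPM and at 147 against 62.8 CPM, with most of its day-7 UMIs in a single cell. Htra1, a secreted serine protease known from diseased cartilage, lay under the count minimum and stood at 327 against 62.7 CPM and at 204 against 62.8 CPM.

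Matrix genes split. Mgp (ENSMUSG00000030218.3), the calcium-binding inhibitor of mineralization, stood at 26417 CPM (25945 to 26895) in Spp1-high cells against 7107 CPM on day 7, and at 39980 CPM (39213 to 40757) against 6700 CPM on day 8. It was detected in every Spp1-high cell, at a median of 1.38% and 2.51% of UMIs. Other cartilage cells had medians of 0.407% and 0.393%. Fn1, the adhesive matrix protein fibronectin, stood at 5961 against 1790 CPM and at 4730 against 1651 CPM. Tnc, tenascin C, an adhesion-modulating protein of growing and injured matrix, stood at 469 against 133 CPM and at 251 against 124 CPM. Col6a1, which encodes a chain of the collagen around each chondrocyte, stood at 980 against 506 CPM and at 918 against 443 CPM. The other chains Col6a2 and Col6a3, added to the named genes after their values were seen, were higher in both libraries as well.

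Typical cartilage matrix genes leaned the other way. Of 17 measured cartilage matrix genes outside the rule, Fn1 was higher and Matn3, Prelp and Cnmd were lower in both libraries, with medians of -0.35 on day 7 and -0.32 on day 8. Matn3, an adaptor protein of cartilage fibrils, stood at 1125 against 2133 CPM on day 7 and 841 against 2129 CPM on day 8. Cnmd, chondromodulin, which keeps cartilage free of vessels, stood at 2715 against 4620 CPM and at 2743 against 4651 CPM. Col2a1 and Acan helped choose the cells, so their day-7 levels of 37026 against 48953 CPM and 1572 against 2343 CPM are a description only.

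Genes that handle pyrophosphate were among the higher ones. Ank, which exports pyrophosphate, stood at 473 against 172 CPM on day 7 and 312 against 138 CPM on day 8. Enpp1, which makes pyrophosphate outside the cell, stood at 217 against 84.4 CPM and at 127 against 86.8 CPM, and on day 8 its ratio of 1.51-fold lay at the 1.5-fold limit. These were the only calls among 6 measured genes of the phosphate list. Alpl, the phosphatase that degrades pyrophosphate, lay under the count minimum with 34 and 10 UMIs and stood at 75.2 against 17.5 CPM and at 38.6 against 16.9 CPM.

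Of 11 listed receptors of osteopontin 2 had enough UMIs, and 1 of them, Itgav, was higher in both libraries. Itgav, the integrin subunit that pairs with several partners to bind osteopontin, stood at 192 against 85.3 CPM on day 7 and 147 against 86.1 CPM on day 8. Itgb1, a partner subunit, was near the level of other cells at 190 against 149 CPM and 185 against 154 CPM. Cd44, the hyaluronan receptor that also binds osteopontin, lay under the count minimum and stood at 92.9 against 44.5 CPM and at 127 against 68.4 CPM.

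Signalling genes with a higher level included growth factors and feedback regulators. Of 6 measured TGF-beta, BMP and Wnt genes, Tgfb2, Bmp2 and Bmp6 were higher and Sfrp1 and Gdf10 lower in both libraries. Tgfb2, a ligand of the TGF-beta receptors, stood at 502 against 144 CPM on day 7 and 282 against 130 CPM on day 8. Sfrp1, a secreted Wnt antagonist, stood at 33.2 against 115 CPM and at 19.3 against 86.2 CPM, from 15 and 5 UMIs. Nfkbia, the inhibitor that NF-kappaB induces against itself, stood at 701 against 344 CPM and at 667 against 275 CPM. Cebpb, a transcription factor of the acute phase response, stood at 241 against 140 CPM and at 251 against 109 CPM. It was the only call among 6 measured genes of the gp130 receptor signalling list, with medians of 0.42 and -0.25. Cdkn1a, the cell-cycle inhibitor p21, stood at 526 against 225 CPM and at 490 against 248 CPM. It was the only call among 2 measured genes of the list of p53 targets and cell cycle arrest. That whole list differed little, at 1663 against 1568 CPM and at 1462 against 1560 CPM.

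Most cytokine and acute-phase genes were too low to compare gene by gene. Only 1 of 26 listed genes had enough UMIs, and it was not called, with log2 ratios of -0.75 and -0.27. All 26 together stood higher, at 1201 CPM (1102 to 1306) against 531 CPM on day 7. On day 8 their sum was 968 CPM (852 to 1096) against 499 CPM. Cxcl1, a neutrophil-attracting chemokine, stood at 352 against 102 CPM on day 7 and 324 against 69.0 CPM on day 8, but on day 8 a single cell held 54.8% of its UMIs. Il6 gave 1 UMI in each library and Lcn2 gave 2 on day 7 and none on day 8.

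Enzymatic digestion is known to induce immediate early and heat shock genes. None of 14 measured immediate early genes was higher in both libraries and Jund was lower. The libraries differed, with 1 gene higher and 1 lower on day 7 alone and 1 higher and 6 lower on day 8 alone. The medians were -0.05 and -0.52. Fos, the AP-1 subunit induced within minutes of a stimulus, stood at 3549 against 5043 CPM on day 7 and 3279 against 5444 CPM on day 8. None of 12 measured heat shock genes was called in both libraries, with medians of -0.07 and -0.23, and 3 were lower on day 8 alone. Hspa1a, the inducible HSP70 chaperone, stood at 237 against 252 CPM and at 231 against 404 CPM. The part of digestion in these levels was not tested.

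Genes of low oxygen and glycolysis leaned lower. Of 9 measured genes of the hypoxia and glycolysis list, Pgk1 and Bnip3 were lower in both libraries and none was higher, with medians of -0.70 and -0.46. Bnip3, a mitophagy receptor induced by hypoxia, stood at 97.3 against 216 CPM on day 7 and 61.7 against 285 CPM on day 8. Pgk1, an enzyme of glycolysis, stood at 219 against 451 CPM and at 285 against 558 CPM. Vegfa, the main vessel growth factor and also a hypoxia gene, lay under the count minimum and stood higher at 73.0 against 42.2 CPM and 84.9 against 39.1 CPM, from 33 and 22 UMIs.

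Further hypoxia-responsive mitochondrial genes were chosen after their values were seen. Ndufa4l2 stood at 153 against 595 CPM on day 7 and 231 against 785 CPM on day 8. Higd1a stood at 650 against 1784 CPM and at 1115 against 2424 CPM. For Fam162a the values were 283 against 604 CPM and 363 against 890 CPM.

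Cell division genes were sparse. The 18 genes together stood at 252 CPM against 663 CPM on day 7 and at 583 against 897 CPM on day 8, and Top2a and Cenpf were lower in both libraries. Top2a, the topoisomerase of dividing cells, gave 2 UMIs on day 7 and 10 on day 8, and on day 8 a single cell held 92.9% of the 14 Cenpf UMIs. The 10 genes with the smallest ratios were Sfrp2, Khk, Tnnt3, H2-DMa, Nog, Stmn1, Esco2, Aspm, Kif23 and Pkdcc. Each rested on at most 10 UMIs in the Spp1-high cells of a library, and only Stmn1, a microtubule regulator of growing cells, passed the count minimum.

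The Spp1-high cells were set beside hypertrophic cartilage, the stage in which Spp1 is best known. Col10a1-high cells, with the same gates but Col10a1 at 0.5% of UMIs or more, numbered 31 on day 7 and 59 on day 8, and their median depths were 7668 and 6247 UMIs. Their Spp1 level was 3101 and 4878 CPM. Cytl1 stood at 72.7 and 69.7 CPM there, Emb at 90.9 and 99.6 CPM and Mgp at 1614 and 4049 CPM, all below the Spp1-high cells outside both intervals. Other genes stood near the Spp1-high cells, with Fn1 at 6030 and 4918 CPM and Cdkn1a at 672 and 585 CPM in the Col10a1-high cells. Ihh, the hedgehog ligand of prehypertrophic cells, stood at 400 and 697 CPM in Col10a1-high cells and at 35.4 and 15.4 CPM in Spp1-high cells. Ibsp, bone sialoprotein, stood at 1167 and 1173 CPM against 241 and 61.7 CPM.

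**Figure D3:**
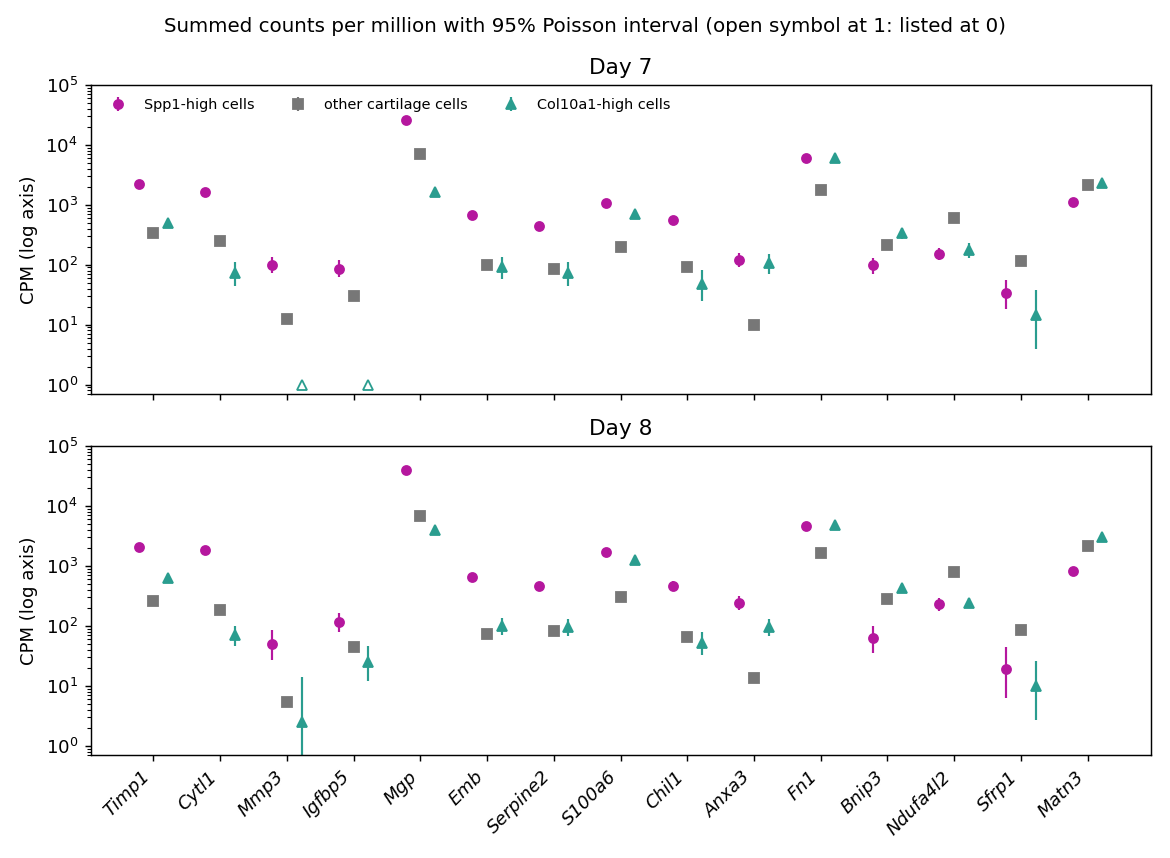
CPM (log axis) of 15 genes in Spp1-high cells, other cartilage cells and Col10a1-high cells on days 7 and 8, with 95% Poisson intervals as bars and an open symbol where a gene was listed at 0. Timp1, Cytl1, Mgp and Emb are highest in Spp1-high cells, Fn1 is alike in Spp1-high and Col10a1-high cells, and Bnip3, Ndufa4l2, Sfrp1 and Matn3 lie below the other cartilage cells.

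Few Spp1-high cells were rich in Prg4 or Ucma on day 7. Prg4, the lubricin of the joint surface, gave at least 0.5% of UMIs in 3 of 94 Spp1-high cells (3.19%, interval 0.663 to 9.04) and in 13.2% of other cells on day 7, and in 8 of 62 (12.9%, interval 5.74 to 23.9) and 17.4% on day 8. Ucma, a Gla protein of the upper zone, gave at least 1% of UMIs in 0 of 94 cells on day 7 (interval 0 to 3.85) against 6.41% of other cells, and in 2 of 62 on day 8 against 4.71%. Summed, Ucma stood at 1632 against 3768 CPM on day 7 and 2600 against 3354 CPM on day 8. Among the Prg4-high cells, Cytl1 stood at 501 and 760 CPM and Mgp at 8848 and 11268 CPM, between the Spp1-high and the other cells.

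The resting zone of the growth plate holds slowly dividing reserve cells. Of 6 measured genes of its list Cytl1, Clu and Nt5e were higher and none was lower in both libraries, with medians of 0.71 and 0.41. Cytl1 is one of the markers under which the cells were proposed, so its call adds no support of its own. On day 7 alone Ucma and Wif1, a secreted Wnt inhibitor, were at least 1.5-fold lower. The whole list summed to 4168 against 4779 CPM on day 7 and to 5590 against 4278 CPM on day 8. Clu, the chaperone clusterin, stood at 281 against 123 CPM on day 7 and 378 against 90.4 CPM on day 8. Nt5e, the ectoenzyme CD73 that turns AMP into adenosine, stood at 296 against 100 CPM and at 204 against 112 CPM.

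Several levels were ordered with the Spp1 share across all cartilage cells, which the rule itself used. Emb stood at 88.8 CPM in day-7 cells without an Spp1 UMI, at 105 CPM with Spp1 above 0 and below 0.1%, at 216 CPM between 0.1% and 0.5%, and at 615, 738 and 783 CPM at 0.5% to 1%, 1% to 2% and 2% or more. On day 8 the same steps gave 63.7, 81.6, 189, 462, 806 and 967 CPM. Cells below the threshold that had some Spp1 thus already lay above those with none. S100a6 was higher at each step too, with 174 CPM at the lowest and 2304 CPM at the highest on day 7, and 268 and 3212 CPM on day 8. Matn3 stood at 2114 CPM without Spp1 and 537 CPM at 2% or more on day 7, and at 2181 and 492 CPM on day 8. Above the threshold Mgp stood at similar levels, at 25102, 27651 and 28316 CPM in the upper steps of day 7 and 41388, 39887 and 36657 CPM in those of day 8. The upper step held 18 cells on day 7 and 16 on day 8.

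**Figure D4:**
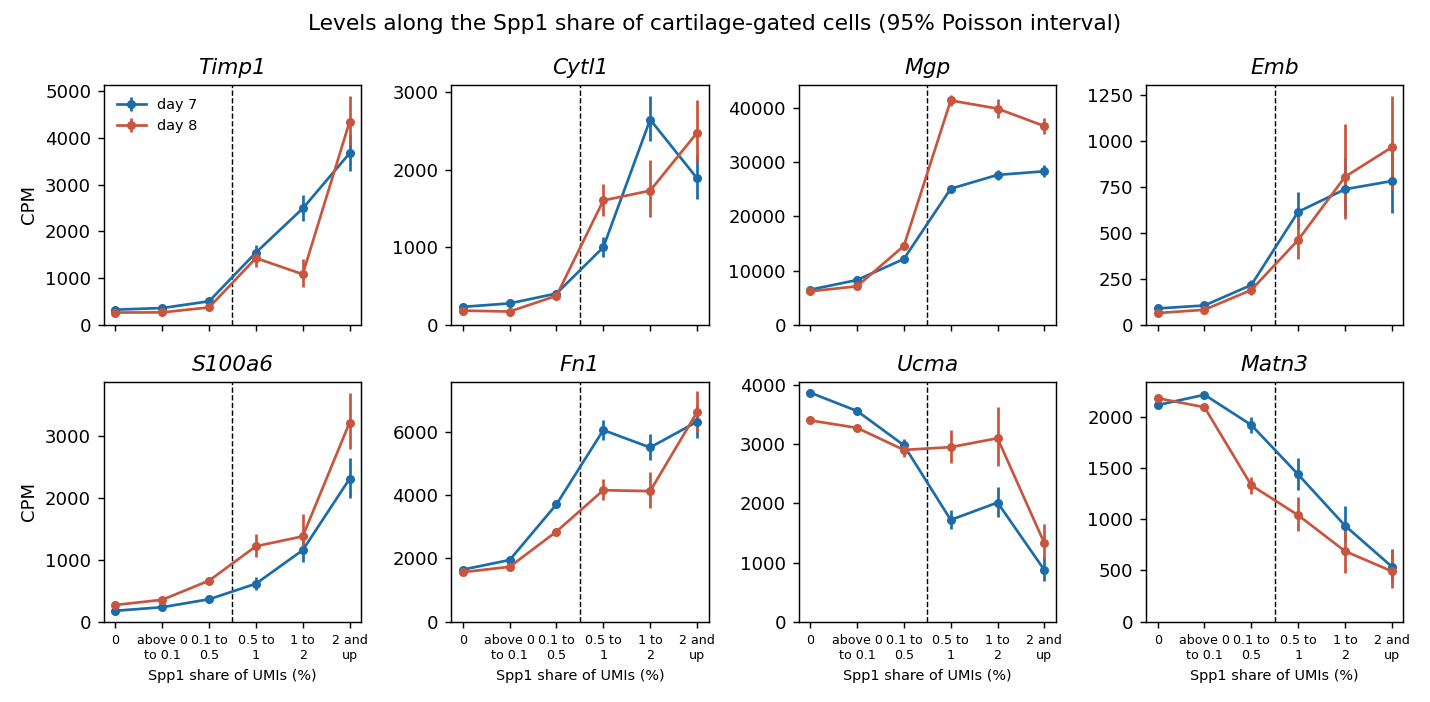
CPM of 8 genes in cartilage cells grouped by their Spp1 share of UMIs, on days 7 and 8, with 95% Poisson intervals as bars and the 0.5% threshold dashed. Emb, S100a6 and Timp1 are highest in the cells richest in Spp1, Mgp is at similar levels above the threshold, and Ucma and Matn3 are lowest in the cells richest in Spp1.

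Part of the cells held UMIs of several leading genes. The genes were picked for higher levels in these same cells, so a higher share than in other cells follows from the choice. Whether they occurred together more often than their separate shares would give was not tested. After thinning to 1000 UMIs, at least 3 of Timp1, Cytl1, Emb, Serpine2 and S100a6, a set of 5 chosen after the values were seen, were detected in 35 of 94 Spp1-high cells on day 7, or 37.2% (27.5 to 47.8), and in 30 among 62 on day 8, or 48.4% (35.5 to 61.4). In other cartilage cells the shares were 2.52% and 2.46%. They were 2.04% and 1.35% in endothelial cells, 1.87% and 0.259% in macrophage-lineage cells, and 0% and 2.53% in osteoblast-lineage cells. Single genes of the set were not confined to Spp1-high cells. S100a6 stood at 1142 and 1589 CPM in endothelial cells, and Serpine2 at 505 and 367 CPM in osteoblast-lineage cells, on days 7 and 8. Timp1, Cytl1 and Emb were lower in each of these lineages than in Spp1-high cells. None of the 5 was detected in 21.3% and 14.5% of Spp1-high cells. Timp1 alone was seen in 48.9% of day-7 Spp1-high cells after thinning and in 74.5% before it.

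Levels varied widely within the group. Splits by Mgp and by Mmp13, Ibsp and Mmp9 were made after the values were seen and are cuts through ranges. A set of 7 cells on day 7 and 2 on day 8 had at least 5 UMIs of Mmp13, Ibsp and Mmp9 together, and 1 of the day-7 cells had 481. Of the rest, 52 and 44 cells had Mgp at 1% of UMIs or more and 35 and 16 had less. Within a factor of 0.8 of the 1% Mgp limit on either side lay 15 cells on day 7 and 7 on day 8, and 5 and 4 cells had 3 or 4 UMIs of Mmp13, Ibsp and Mmp9.

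Cells with Mgp at 1% or more carried most of Cytl1, Emb and Igfbp5. Cytl1 stood at 2546 CPM in them and 600 CPM in cells with less Mgp on day 7, and at 2363 and 476 CPM on day 8. Emb stood at 936 and 470 CPM on day 7 and 846 and 136 CPM on day 8. Igfbp5 stood at 142 and 21.7 CPM and at 148 and 34.0 CPM. Timp1 differed less, at 2661 and 2032 CPM on day 7 and 2357 and 1412 CPM on day 8.

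Cells with less Mgp had more of the prehypertrophic genes. Pth1r, the receptor of parathyroid hormone-related protein, stood at 477 CPM in them and 71.1 CPM in the Mgp-rich cells on day 7, and at 136 and 26.4 CPM on day 8. Runx2, the transcription factor of hypertrophy and bone formation, stood at 412 and 213 CPM on day 7 and 408 and 63.4 CPM on day 8. Panx3, a channel protein of maturing chondrocytes, stood at 275 and 71.1 CPM and at 136 and 10.6 CPM. The median share of Pth1r was 0 in both kinds of cell on both days, and it was detected in 17 of 35 and 11 of 52 cells on day 7. On day 8 Pth1r was detected in 4 of 16 and 5 of 44 cells, from 8 and 5 UMIs. Its day-8 intervals overlapped, at 58.8 to 268 CPM and 8.58 to 61.7 CPM. Panx3 rested on 8 and 2 UMIs on day 8.

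The 7 cells rich in Mmp13, Ibsp and Mmp9 on day 7 had low levels of Cytl1 and Emb but not of every leading gene. Cytl1 stood at 33.0 CPM, Emb at 98.9 CPM and Timp1 at 775 CPM in them, against 1859, 771 and 2439 CPM in the other 87. Serpine2 was higher in the 7 cells, at 1632 against 258 CPM, and S100a6 stood at 907 against 1119 CPM. Mmp13, the collagenase of terminal hypertrophic cartilage, stood at 7880 CPM and Runx2 at 1187 CPM. A single one of the 94 cells held 69.0% of the Mmp13 UMIs and a single one 89.9% of those of Mmp9. Osteoclast markers summed to 2341 CPM there, most of it Mmp9, and osteoblast markers to 7188 CPM, against 59.2 and 1615 CPM in the Mgp-rich cells. Mmp9 and Ibsp, by which the 7 cells were chosen, are in these lists, so the higher sums follow in part from the choice. Whether these cells are doublets was not tested. Leaving out all 9 cells gave 77 higher and 87 lower genes, of which 66 and 73 were among the 73 and 80.

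**Figure D5:**
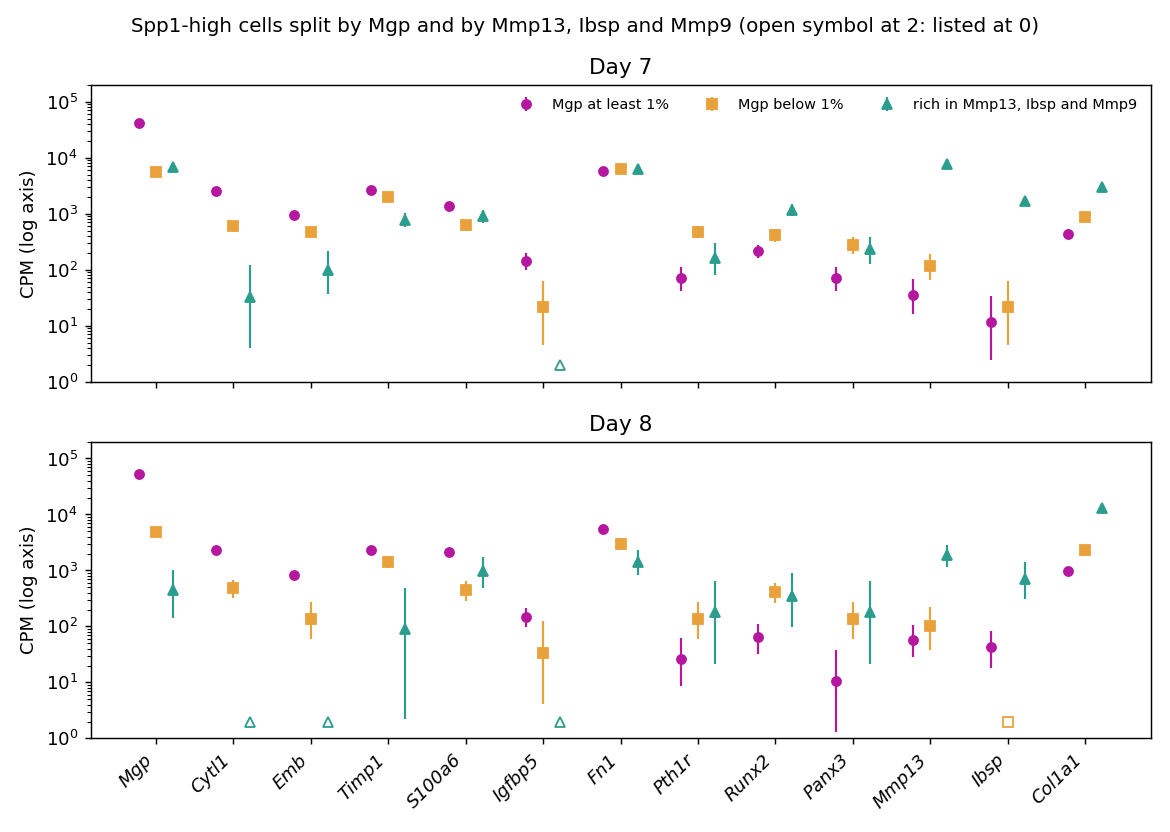
CPM (log axis) of 13 genes in Spp1-high cells with Mgp at 1% of UMIs or more (52 and 44 cells), with less Mgp (35 and 16 cells) and rich in Mmp13, Ibsp and Mmp9 (7 and 2 cells) on days 7 and 8, with 95% Poisson intervals as bars and open symbols at 2 for genes listed at 0. Cytl1 and Emb are highest with Mgp, and Pth1r, Runx2 and Panx3 are higher in the cells with less Mgp than in those with more.

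The Spp1-high cells of the 2 days were also compared with each other. Of 1970 genes measured, 144 (7.31%) were at least 1.5-fold higher on day 8 and 236 (12.0%) at least 1.5-fold lower, with a median log2 ratio of -0.01. With 5 UMIs added to each sum the counts were 156 higher and 155 lower, so the split between directions moved with this setting. Prg4 stood at 597 CPM on day 7 and at 3839 CPM on day 8, while in other cartilage cells it stood at 2502 and 4172 CPM. On day 8 a single cell held 24.0% of its UMIs. Fabp4, a fatty-acid carrier, stood at 17.7 and 204 CPM, and Cryab, a small heat shock protein, at 50.9 and 347 CPM, with 37.7% and 42.2% of their day-8 UMIs in 1 cell.

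Among the lower genes were Mmp13 (1112 and 147 CPM on days 7 and 8), Mmp9 (329 and 30.9 CPM) and Ibsp (241 and 61.7 CPM). Without the 9 cells chosen for these same genes, Mmp13 stood at 63.8 CPM on day 7 and at 68.6 CPM on day 8. Ibsp stood at 15.3 and 32.3 CPM and Mmp9 at 33.2 and 32.3 CPM. Such lower levels follow from the choice of the cells, so they show only where the UMIs lay. The prehypertrophic list also had 5 of 6 measured genes lower on day 8 and none higher. Pth1r stood at 208 and 57.9 CPM on days 7 and 8, and at 215 and 52.4 CPM without those cells. Maf, a transcription factor of late chondrocyte maturation, stood at 177 and 50.2 CPM, and at 151 and 28.2 CPM without them. Lif, a cytokine of the interleukin-6 family, stood at 108 and 23.1 CPM, with 40.8% of its day-7 UMIs in 1 cell. Each day is 1 library, so day and library cannot be told apart.

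The same rule found 3 cells on day 10 and 88 of 2687 cartilage cells on day 12 (3.28%, interval 2.63 to 4.02). The Spp1 level of the day-12 cells was 12898 CPM. Cytl1 stood at 126 CPM against 169 CPM in other cartilage cells of day 12, Mgp at 6530 against 6377 CPM and Emb at 109 against 86.8 CPM, and a single cell held 56.6% of the Cytl1 UMIs. Timp1 stood at 255 against 108 CPM. Bone matrix genes led instead, with Col1a1, the main bone collagen, at 83307 against 21779 CPM and Ibsp at 3203 against 169 CPM, whereas Col1a1 in the Spp1-high cells of days 7 and 8 was 922 and 1802 CPM and below the other cartilage cells. At least 5 UMIs of Mmp13, Ibsp and Mmp9 together were present in 62 of the 88 cells. Serpine2 at 826 against 133 CPM and Tnc at 1001 against 209 CPM were higher on day 12 as on the earlier days.

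The genes called on days 7 and 8 were followed to day 12. Of the 71 genes outside the rule that were higher on days 7 and 8, 17 were higher and 2 lower on day 12, where 3.04% of 1808 genes were higher and 15.3% lower. The median log2 ratio of the 71 was 0.25 on day 12. Of 78 genes lower on the earlier days and measured on day 12, 52 were lower there and none was higher, with a median of -0.88 beside -0.23 for all genes. Matn3 stood at 1181 against 3638 CPM and Bnip3 at 110 against 270 CPM on day 12. The day-12 cells were deeper, with a median of 11851 UMIs.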

How the data were processed

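Single-cell RNA sequencing libraries of the femoral epiphysis on days 7, 8, 10 and 12 were used, 1 per day. The authors deposited raw UMI counts for every gene in every barcode, which hold whole numbers only. Per the submitters' processing notes the genome build is GRCm39, and the sources used here do not name the program or annotation behind the counts. The labels' digestion protocol speaks of bowel tumours, and it is unknown if it was used on the epiphysis. Symbols came from the files, which list 55416 features.

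Cells and groups followed the rule given in the report. The members and gene lists were chosen with earlier results of these data known. Counts were summed per library and group, scaled to CPM, and compared as ratios with 1 UMI added to each sum. A gene was counted when at least 20 UMIs were expected in each group at the pooled rate, and called when it passed 1.5-fold in the same direction in both libraries. Day 8 and day 7 were compared as a single ratio called at 1.5-fold. Named genes were the 5 markers, the rule genes, the listed genes, and the 15 largest and 10 smallest ratios with at least 50 UMIs in the higher group of each library, leaving out mitochondrial, ribosomal, hemoglobin and sex-linked genes (Xist, Tsix and Y-linked genes). Exact Poisson and Clopper-Pearson intervals are at 95%. No doublet caller was run. Alternatives left out the 6% of cells with most UMIs, or cells with a UMI of another lineage. The ratio code was tested on simulated data. Python 3.11.15, numpy 2.4.6, scipy 1.17.1, pandas 2.3.3 and matplotlib 3.10.9 were used.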

Additional observations from a re-analysis of the deposited data

Results flagged for a closer look

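Ddit3, Pth1r and Runx2 were at least 1.5-fold higher in Spp1-high than in other cartilage cells on day 7 and at least 1.5-fold lower on day 8. Each day is 1 library, so this difference between days was not tested. Ddit3, a transcription factor of the integrated stress response, had log2 ratios of 0.94 on day 7 and -0.70 on day 8, at 142 and 50.2 CPM in Spp1-high cells and 74.8 and 87.7 CPM in other cells. Its UMIs numbered 64 and 13. Pth1r had log2 ratios of 0.85 and -0.99, from 94 and 15 UMIs. Runx2 had log2 ratios of 0.67 and -0.74, from 183 and 40 UMIs. Without the 7 Mmp13-rich cells of day 7 its level there was 283 CPM against 256 CPM in other cells, under 1.5-fold, whereas Pth1r stayed at 215 against 117 CPM. For Pth1r and Runx2 the cells with less than 1% Mgp held the higher level on both days, and these cells were 35 of 94 on day 7 and 16 of 62 on day 8. For Pth1r on day 8 this rested on 8 UMIs against 5 in the cells with more Mgp, with overlapping intervals. The part of this make-up in the difference was not tested.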

How the results depend on the processing

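No paired test was run, because each day is 1 library and the groups were split by their own counts. Spp1-high and other cells were set side by side within each library. The 4 counts are given in the order higher and lower in Spp1-high cells of both libraries, then higher and lower on day 8 than on day 7, and stood at 73, 80, 144 and 236. Thinning to 1000 UMIs gave 11, 13, 27 and 36, a minimum of 100 expected UMIs 10, 23, 12 and 19, and leaving out cells with a UMI of another lineage 25, 36, 69 and 99, each with fewer genes measured. A fold of 2 gave 27, 21, 20 and 63. Without a filter they were 14253, 394, 4693 and 2763, with 25592 genes counted. Adding 5 UMIs moved the lower counts to 51 and 155, with 156 higher on day 8, and Spp1 at 1% or more gave 35 higher and 59 and 91 between days. A filter on the mean of both groups, added after seeing the data, gave 110 higher genes. Higher genes were 47.7% of the calls in both libraries, and 66.2% with 5 UMIs added, 97.3% without a filter, 30.3% with 100 expected UMIs, 34.3% with Spp1 at 1% or more and 65.5% with the filter on the mean. The setting without the Mmp13-rich cells was also chosen after seeing the data. The share of cartilage cells moved with the rule: Spp1 at 1% gave 0.457% and 0.449% on days 7 and 8, Spp1 at 0.25% gave 1.86% and 1.68%, and cartilage genes at 5% gave 0.559% and 0.438%. Turns of direction were counted for the markers, the largest and smallest ratios and the list medians, where the main value was at least 1.5-fold. Sign changes of smaller values were not counted. Directions so counted turned only for genes with few UMIs and 1 list. These were 9 results, while 135 others moved outside the main interval or by 1.5-fold or more and 1200 stayed within. Thinning gave log2 ratios of 0.040 for Khk and 0.093 for Aspm on day 7, and 0.34 for Nog, 0.27 for Esco2 and 0.52 for Pkdcc on day 8. Adding 5 UMIs gave 0.034 and 0.40 for Aspm on days 7 and 8 and 0.34 for Nog on day 8. The cell division median on day 8 was 0.10 with Spp1 at 1%. UMIs were added in equal number to sums of unlike size, on day 7 452249 in Spp1-high and 34996323 in other cartilage cells. By arithmetic this raises the ratios of genes with few UMIs in Spp1-high cells, both with 5 UMIs added and without a filter. The cause of the other shifts was not tested.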

Other observations

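Several genes outside the gene lists were higher in Spp1-high cells of both libraries and were chosen after their values were seen. Lgals3, galectin-3, a lectin of chondrocytes and macrophages, stood at 1123 against 354 CPM on day 7 and at 1018 against 374 CPM on day 8. In Col10a1-high cells it stood at 1123 and 1150 CPM. Hbegf, an EGF-receptor ligand, stood at 537 against 217 CPM and at 671 against 224 CPM, and Errfi1, a feedback inhibitor of that receptor, at 1515 against 806 CPM and 1188 against 627 CPM. Tfrc, the receptor for iron-loaded transferrin, stood at 323 against 107 CPM and at 212 against 106 CPM, above Col10a1-high cells at 14.5 and 17.4 CPM. Runx1 stood at 237 against 116 CPM and at 189 against 119 CPM.

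Among lower genes, C1qtnf3, a secreted protein of cartilage, stood at 161 against 482 CPM on day 7 and 158 against 522 CPM on day 8. Il17b, a cytokine made by chondrocytes, stood at 31.0 against 106 CPM and at 3.86 against 111 CPM, from 14 and 1 UMIs. Hbb-bs, a hemoglobin gene of red cells, stood at 159 against 297 CPM and at 455 against 1096 CPM.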
